A study of Mus musculus with 9 samples.

Results

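The 10 genes described here store, take up, release and sense iron: the ferritin subunits Ftl1 and Fth1, the uptake genes Trf, Tfrc, Slc11a2 and Cybrd1, the exporter Slc40a1, the heme-degrading enzyme Hmox1, and the iron regulatory proteins Aco1 and Ireb2. They were taken as a named list out of 25085 genes in the files, and their values are read counts summed over the RefSeq transcripts of each gene. Of the 10, 9 passed the filter on low counts that kept 14850 genes for testing. Fth1 did not pass. The list was drawn up with the group differences in these same counts known, so levels and fold changes of the 10 genes are given as a description, without p-values. How many passed the threshold is given beside the share of all genes that passed.

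The study measured poly(A) RNA in primary mouse cultures of 3 cell types, with 3 libraries of each. The labels number these libraries and do not say whether they came from separate animals or cultures, so a p-value measures only the spread between them. Astrocytes came from the cortex of pups of either sex at postnatal days 1 to 3 and were cultured for about 21 days to confluence. OPC, the oligodendrocyte progenitor cells from which myelinating cells arise, came from cortex at postnatal days 6 to 9, either sex, and were cultured for 6 to 7 days. DRG neurons, the sensory neurons of the dorsal root ganglia, came from E13.5 embryos and were cultured for about 2 weeks. No strain, transgene or treatment is named in the labels. Donor age, tissue and time in culture differ along with cell type and cannot be told apart from it.

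Iron enters most cells as iron-loaded transferrin, which binds the transferrin receptor and is taken into endosomes, where ferric iron is reduced and carried into the cytosol by the transporter DMT1. Cytosolic iron that is not used is stored inside ferritin, a shell built of H and L chains, or leaves the cell through ferroportin. When iron is scarce, the iron regulatory proteins bind short RNA hairpins called iron responsive elements: binding in a 5' UTR blocks translation, as for ferritin, and binding in the 3' UTR of the transferrin receptor protects its mRNA from decay. In the nervous system, cells of the oligodendrocyte lineage are known for high iron and ferritin content, since myelin synthesis depends on iron-containing enzymes.

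The hairpins are shown because they are the sequence feature through which several of these mRNAs are jointly controlled. The search used the sense strand of the GENCODE transcripts matched to the counted accessions and a pattern made of a C, 5 bases of any kind, the loop CAGTGN and 5 bases that had to pair with the earlier 5 by Watson-Crick or G-T pairs. It matched a UTR in 4 of the 10 genes (Ftl1, Fth1, Tfrc and Slc40a1), against 127 of 20011 genes searched in all (0.635%). Capitals mark the 6-base loop in each 29-base window, and coordinates are those of GRCm38, the assembly of the mm10 build the reads were aligned to.
Ftl1, 5' UTR, chr7:45459779-45459807, minus strand: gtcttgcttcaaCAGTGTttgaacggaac
Fth1, 5' UTR, chr19:9982732-9982760, plus strand: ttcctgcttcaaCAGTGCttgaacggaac
Slc40a1, 5' UTR, chr1:45925465-45925493, minus strand: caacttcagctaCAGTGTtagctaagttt
Tfrc, 3' UTR, element 1, chr16:32631219-32631247, plus strand: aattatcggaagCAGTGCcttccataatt
Tfrc, 3' UTR, element 2, chr16:32631598-32631626, plus strand: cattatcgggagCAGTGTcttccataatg
Tfrc, 3' UTR, element 3, chr16:32631663-32631691, plus strand: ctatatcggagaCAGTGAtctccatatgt
Tfrc, 3' UTR, element 4, chr16:32631710-32631738, plus strand: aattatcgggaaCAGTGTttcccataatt
The 2 ferritin elements share their upper stem and most of their flanks, while Tfrc holds 4 elements in the same 3' UTR. With 1 unpaired position allowed in the stem, Slc11a2 also had a match, and so had 4.18% of all genes searched. It lies in the 3' UTR of the Slc11a2 transcript with the longer 3' UTR and is absent from the other counted transcript.
Slc11a2, 3' UTR, chr15:100395153-100395181, minus strand: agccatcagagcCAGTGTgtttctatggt
No match says only that these letters were not found in the transcript models used.

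Assigned counts ran from 30710093 to 53594210 per library, and 37.1 to 46.9% of all reads counted were in rows that name no gene. Levels are CPM, counts scaled to a common library size after TMM correction, as mean ± SD over 3 libraries. The summed level of 10 astrocyte genes was 7352 ± 886 CPM in astrocytes, that of 10 pan-neuronal genes 35300 ± 13450 in DRG cultures, and that of 10 OPC genes 8518 ± 1946 in OPC. Each of these 3 sums was highest there, but OPC genes also summed to 2093 ± 530.3 CPM in astrocytes and 33.0 ± 8.91 in DRG cultures, astrocyte genes to 1018 ± 169 in OPC and 20.7 ± 10.2 in DRG cultures, and pan-neuronal genes to 168 ± 21.6 in astrocytes and 314 ± 5.57 in OPC. Some libraries stood apart. Astrocytes replicate 1 held 4359 CPM of 15 microglia and macrophage genes, against 827 and 777 in replicates 2 and 3, 130 to 187 in DRG cultures and 95.7, 171 and 437 in OPC replicates 1 to 3. Its fibroblast and mural genes summed to 433 CPM, against 5117 and 6354 in replicates 2 and 3, 245 to 498 in DRG cultures and 1.51 to 2.21 in OPC. Most of the astrocyte sums was Acta2 (413, 4639 and 5997 CPM). Col1a1 and Col3a1 averaged 73.2 and 20.2 CPM in astrocytes and 89.0 and 134 in DRG cultures. Fn1 averaged 90.0 CPM in astrocytes and 6.78 in DRG cultures. OPC replicate 3 held relatively fewer reads of long transcripts: its median log2 ratio to the other OPC libraries was 0.27 for genes of 131 to 1814 nucleotides and −0.32 for genes of 4355 nucleotides and more. DRG replicate 1 had the highest pan-neuronal sum, 50700 CPM, against 25860 and 29330. This came mainly from Nefl (15670, 7381 and 8486 CPM in DRG replicates 1 to 3) and Nefm (21370, 5997 and 6875 CPM). Of the DRG libraries, replicate 1 was also highest for Syp, Elavl3, Elavl4 and Stmn2. It was lowest for Tubb3 (5459 CPM, against 6227 and 7275) and Snap25 (188 CPM, against 284.5 and 288). Whether a low level in a culture reflects fewer cells of a type or less RNA per cell cannot be told apart.

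Of the uptake genes, Tfrc was highest in the DRG libraries and Cybrd1 in the astrocyte libraries, while Ftl1 and Aco1 were highest in OPC. In DRG cultures against astrocytes, 1 of the 9 genes passed the threshold (edgeR adjusted p under 0.05) as higher and 4 as lower, with a background of 60.2% of all genes called in either direction, 27.4% higher and 32.7% lower. In DRG cultures against OPC, 2 passed as higher and 2 as lower (background 59.5%, 28.4% higher and 31.1% lower). In OPC against astrocytes, 2 passed as higher and 2 as lower (background 51.8%, 26.3% higher and 25.5% lower). The median log2 fold changes of the 9 genes were −0.50, −0.16 and 0.29 in these 3 comparisons, against −0.13, −0.08 and 0.09 over all genes tested. The groups did not overlap for 5 of the 9 genes in each comparison, against 69.0% (31.7% higher and 37.3% lower in DRG), 67.4% (32.9% and 34.5%) and 61.3% (31.8% higher and 29.4% lower in OPC) of all genes. Since the list was drawn up on these contrasts, nothing is read from these counts. They also moved with single libraries. In OPC against astrocytes Ftl1 did not pass without Astrocytes replicate 2 or 3 or OPC replicate 3, and Trf did not without Astrocytes replicate 1 or OPC replicate 1 or 2. In DRG cultures against astrocytes Hmox1 did not pass in 10 of the 17 alternatives. Tfrc, Trf, Slc40a1, Slc11a2 and Hmox1 each passed in a further comparison when 1 library was left out. Each pair of comparisons shares 3 libraries.

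**Figure D1:**
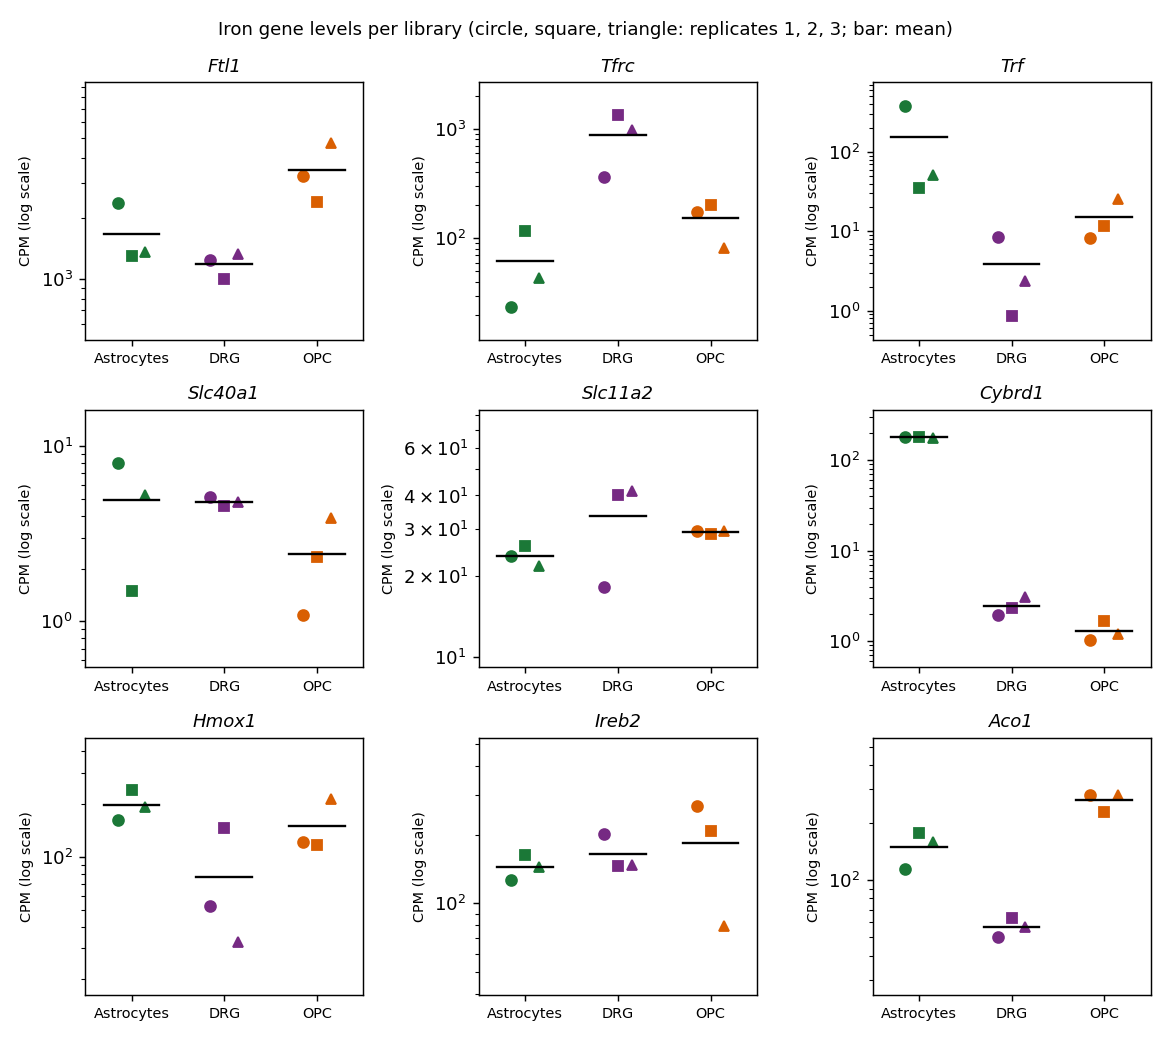
Levels of the 9 measured iron genes in each library, in CPM on a log scale, by cell type. Points are replicates 1 to 3 and bars are means. Tfrc was highest in the 3 DRG libraries, Cybrd1 in the 3 astrocyte libraries and Aco1 in the 3 OPC libraries.

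Ftl1 (GRCm38 chr7:45457944-45459886) encodes the ferritin light chain, which promotes mineral formation inside the ferritin shell. It reached 3254, 2420 and 4732 CPM in OPC replicates 1 to 3, 2376, 1309 and 1367 CPM in astrocytes, and 1247, 1002 and 1336 CPM in DRG cultures. All 3 OPC libraries lay above all others, and the astrocyte and DRG ranges overlapped. The order of means was OPC (3468 ± 1171 CPM), astrocytes (1684 ± 600.1) and DRG cultures (1195 ± 173), and the last pair did not separate beyond its spread (log2 fold change −0.50, SE 0.32). Ftl1 was 2.90-fold lower in DRG cultures than in OPC (log2 −1.54, SE 0.32) and 2.06-fold higher in OPC than in astrocyte cultures (log2 1.04, SE 0.32).

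The OPC and astrocyte values of Ftl1 moved with the libraries that stood apart. The highest astrocyte library was replicate 1, and the highest OPC library was replicate 3, which favours short transcripts, the Ftl1 transcript having 968 nucleotides. The log2 fold change of OPC against astrocytes was 0.59 without OPC replicate 3, 0.89 and 0.91 without Astrocytes replicate 2 or 3, and 0.94 with only the libraries compared. The part of microglia content and transcript length in these values was not tested. Mouse ferritin genes also have many processed copies in the genome, and reads that aligned equally well elsewhere were set aside, so the level of Ftl1 may be under-counted.

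Fth1 (GRCm38 chr19:9980600-9985111), the ferritin heavy chain with ferroxidase activity, could not be measured in these files. Its protein-coding accession held 0 counts in every library, and its non-coding accession held 0 to 17, 49 in all. Of the 929 exon bases of the coding transcript only 6 lie outside the exons of the non-coding one. Reads listed as ambiguous made up 22.0 to 24.7% of all reads per library, and whether the reads of Fth1 are among them was not tested. No statement on Fth1 level, or on the ratio of heavy to light chains, can be drawn from these counts.

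Tfrc (GRCm38 chr16:32608896-32632794) encodes transferrin receptor 1, the entry point of transferrin-bound iron. It reached 360, 1323 and 969 CPM in DRG replicates 1 to 3, 174, 202 and 82.3 CPM in OPC, and 23.8, 118 and 43.8 CPM in astrocyte cultures. The 3 DRG libraries lay above all 6 glial ones, while OPC and astrocytes overlapped. The means were 884 ± 487 CPM in DRG cultures, 153 ± 62.4 in OPC and 61.7 ± 49.5 in astrocytes. Tfrc was thus 14.3-fold higher in DRG cultures than in astrocyte cultures (log2 3.84, SE 0.71) and 5.80-fold higher than in OPC (log2 2.54, SE 0.67).

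The size of the Tfrc difference depended on single libraries, and its direction did not in any alternative run. Without Astrocytes replicate 2 the log2 fold change of DRG cultures against astrocytes was 4.71. The log2 fold change of OPC against astrocytes was 1.31 (SE 0.64), and 2.18 without Astrocytes replicate 2. In OPC replicate 3 Tfrc was −1.19 on the log2 scale against the other OPC libraries, beside a median of −0.32 for genes of like length.

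Trf (GRCm38 chr9:103208876-103230286) encodes transferrin, the iron carrier, which in brain is made mainly by oligodendrocytes and choroid plexus. It reached 376, 35.0 and 50.5 CPM in Astrocytes replicates 1 to 3, 8.23, 11.8 and 25.7 CPM in OPC, and 8.49, 0.863 and 2.35 CPM in DRG cultures. All astrocyte libraries lay above all others, but replicate 1 alone gave most of the astrocyte mean of 154 ± 193 CPM. OPC (15.2 ± 9.24 CPM) and DRG cultures (3.90 ± 4.05 CPM) overlapped. The log2 fold change of DRG cultures was −5.32 (SE 1.20) against astrocytes and −1.98 (SE 1.04) against OPC, and that of OPC against astrocytes was −3.34 (SE 1.08).

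Trf and the microglia and macrophage markers were both highest in Astrocytes replicate 1, and within OPC both were highest in replicate 3, as the plot of Trf against that sum shows. Of the 15 marker genes, 12 reached 5 CPM on average in astrocytes, 7 in OPC and 2 in DRG cultures. Ptprc was at 0 in all DRG and OPC libraries, but it was also at only 0.24, 0.17 and 0.11 CPM in Astrocytes replicates 1 to 3. Its level thus does not tell the cultures apart in microglia content. Within DRG cultures the order differed, with 187, 175 and 130 CPM of markers. The part of microglia in the Trf values was not tested. Without Astrocytes replicate 1 the log2 fold change of DRG cultures against astrocytes was −3.47, and that of OPC against astrocytes was −1.49. Without OPC replicate 1, 2 or 3 the latter was −3.03, −3.17 or −4.10. DRG replicate 1 mattered too: without it the difference was −6.58 against astrocytes and −3.25 against OPC. The 10 myelin and oligodendrocyte genes summed to 38.9, 16.98 and 22.2 CPM in astrocytes, 86.4 to 127 in DRG cultures and 71.4 to 168 in OPC.

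**Figure D2:**
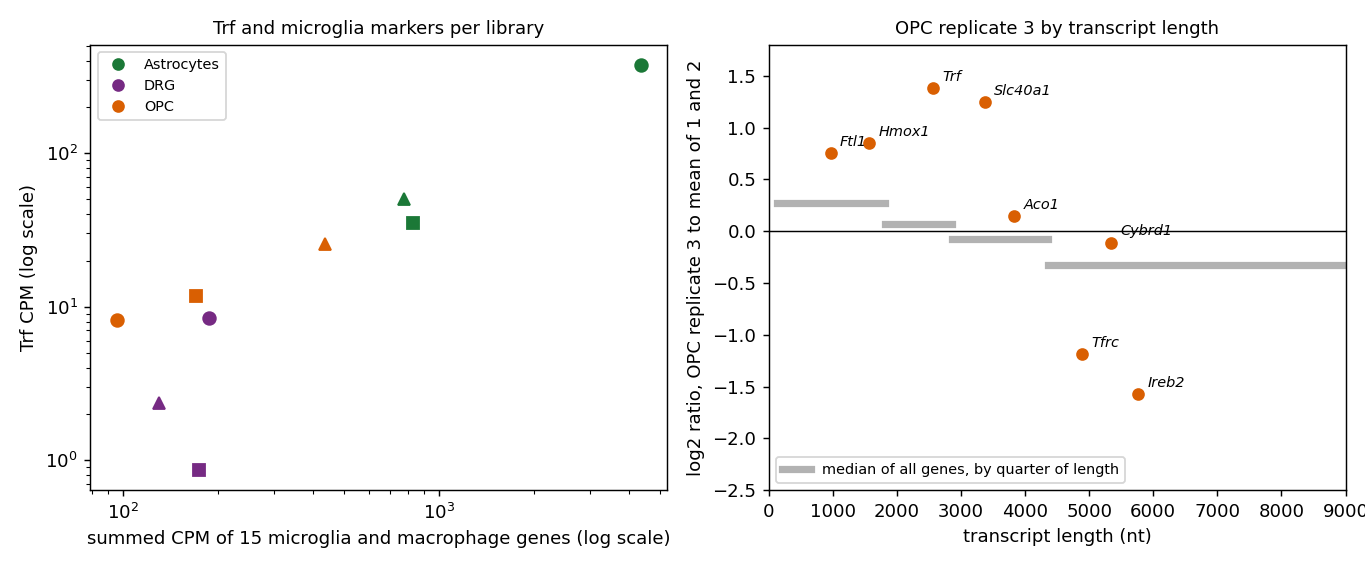
Left, Trf level against the summed level of 15 microglia and macrophage genes in each of 9 libraries, both in CPM on log scales (circle, square and triangle for replicates 1 to 3). Right, log2 ratio of OPC replicate 3 to the mean of OPC replicates 1 and 2 against transcript length for the 8 iron genes with 1 accession, with grey bars for the median of all genes in 4 bins of length. Astrocytes replicate 1 was highest in both values on the left, and Ireb2 and Tfrc lay lowest on the right.

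Cybrd1 (GRCm38 chr2:71118054-71142926) encodes duodenal cytochrome b, a ferric reductase of the plasma membrane. It reached 181, 180 and 179 CPM in Astrocytes replicates 1 to 3, 1.96, 2.32 and 3.05 CPM in DRG cultures, and 1.03, 1.65 and 1.20 CPM in OPC. The 3 groups did not overlap. Cybrd1 was 73.6-fold higher in astrocytes than in DRG cultures (log2 of DRG against astrocytes −6.20, SE 0.27) and 139-fold higher than in OPC (log2 of OPC against astrocytes −7.11, SE 0.28). The lower groups rest on 46 to 118 reads per library, and their difference (log2 0.92, SE 0.23, DRG higher) is small beside those to astrocytes. The astrocyte libraries lay within 179 to 181 CPM. Their microglia markers ranged from 777 to 4359 CPM and their fibroblast and mural genes from 433 to 6354 CPM. The part of these cells in the Cybrd1 level was not tested.

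Slc11a2 (GRCm38 chr15:100387898-100424209) encodes DMT1, which carries ferrous iron out of endosomes. It reached 23.9, 26.0 and 21.8 CPM in astrocytes, 29.4, 28.8 and 29.4 CPM in OPC, and 18.3, 40.3 and 41.7 CPM in DRG cultures. DRG replicate 1 was the lowest of all 9 libraries and the other DRG libraries the highest. The log2 fold change was 0.49 (SE 0.29) for DRG cultures against astrocytes, 0.20 (SE 0.29) against OPC, and 0.29 (SE 0.29) for OPC against astrocytes. Without DRG replicate 1 the values were 0.79 and 0.49 for DRG cultures against astrocytes and OPC.

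The gene was counted on 2 accessions, and reads shared by both may be missing from these levels. The transcript with the hairpin match could be set against the other one. It took 61.4, 80.7 and 71.4% of the Slc11a2 reads in Astrocytes replicates 1 to 3, 75.6, 86.4 and 84.5% in DRG cultures and 69.6, 76.8 and 71.1% in OPC. The means were 71.2 ± 9.66%, 82.2 ± 5.76% and 72.5 ± 3.80%, and the groups overlapped in every pair. The widest 95% Wilson interval was that of DRG replicate 1 (71.8 to 79.0%, from 541 reads), and these intervals cover counting error only. In DRG cultures the hairpin-bearing transcript was at 13.8, 34.8 and 35.2 CPM and the other at 4.47, 5.47 and 6.48 CPM, so the low DRG replicate 1 was low mainly in the former. How reads common to the 2 transcripts were counted is not given in the sources used here, so the shares compare libraries and not the abundance of the isoforms.

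Slc40a1 (GRCm38 chr1:45908070-45926532) encodes ferroportin, the one known iron exporter of vertebrate cells. It was low throughout, with 8.05, 1.496 and 5.25 CPM in Astrocytes replicates 1 to 3, 5.11, 4.55 and 4.802 CPM in DRG cultures, and 1.10, 2.34 and 3.87 CPM in OPC. The DRG libraries lay close together and just above all OPC libraries, and the astrocyte libraries spanned both. The log2 fold change was −0.03 (SE 0.60) for DRG cultures against astrocytes, 0.98 (SE 0.61) against OPC, and −1.02 (SE 0.61) for OPC against astrocytes. Astrocytes replicate 1 and OPC replicate 3, the highest of their groups, were also those with the most microglia markers, and the part of these cells was not tested. The sign of the first difference was not fixed: it was 0.51 without Astrocytes replicate 1 and 0.02 with DESeq2 size factors. Without both libraries the DRG against OPC difference was 1.73. Without Astrocytes replicate 2 the OPC against astrocyte difference was −1.45.

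Per kilobase of transcript, which allows genes with a single accession to be compared, Ftl1 led in every cell type (3583 ± 1209 CPM per kb in OPC, 1740 ± 620 in astrocytes and 1234 ± 178 in DRG cultures). In DRG cultures Tfrc came next at 181 ± 99.6 CPM per kb. In astrocytes and OPC it was Hmox1, at 126 ± 24.8 and 96.0 ± 35.2 CPM per kb. Slc40a1 held 0.723 to 1.46 CPM per kb, and Cybrd1 was below it in DRG cultures (0.457 ± 0.104) and OPC (0.242 ± 0.0599) but at 33.7 ± 0.169 CPM per kb in astrocytes.

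Hmox1 (GRCm38 chr8:75093618-75100593) encodes heme oxygenase 1, a stress-induced enzyme that frees iron from heme. It reached 163, 240 and 192 CPM in astrocytes, 121, 117 and 214 CPM in OPC, and 52.4, 147 and 32.6 CPM in DRG cultures. The DRG libraries lay below the astrocyte ones, and OPC overlapped both. The log2 fold change of DRG cultures against astrocytes was −1.36 (SE 0.51), and −1.14 or −0.98 without DRG replicate 1 or 3. Without DRG replicate 2, which stood well above the other DRG libraries, the difference was −2.21 against astrocytes and −1.82 against OPC. Against OPC the value with all libraries was −0.96 (SE 0.50), and between OPC and astrocytes −0.39 (SE 0.50).

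Aco1 (GRCm38 chr4:40143265-40199009) encodes IRP1, which serves as cytosolic aconitase when it carries an iron-sulfur cluster and binds hairpins when it does not. Ireb2 (GRCm38 chr9:54862658-54912534) encodes IRP2, which has no such cluster and is removed by the iron-sensing ubiquitin ligase subunit FBXL5 when iron is ample. Aco1 reached 279, 226 and 278 CPM in OPC, 114, 176 and 157 CPM in astrocyte cultures, and 50.1, 63.6 and 56.7 CPM in DRG cultures. The 3 groups did not overlap. Aco1 was 4.59-fold lower in DRG cultures than in OPC (log2 −2.20, SE 0.21), 2.63-fold lower than in astrocyte cultures (log2 −1.39, SE 0.20), and 1.75-fold higher in OPC than in astrocyte cultures (log2 0.81, SE 0.20). The last value was 0.44 on the log2 scale without Astrocytes replicate 1 and OPC replicate 3 together.

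Ireb2 reached 127, 163 and 144 CPM in astrocytes, 201, 146 and 148 CPM in DRG cultures, and 268, 207 and 79.1 CPM in OPC. All groups overlapped, with log2 fold changes of 0.19, −0.16 and 0.35 (SE 0.37 in each). Library size alone gave −0.06 for the first, and DESeq2 size factors gave 0.03 for the second. Without OPC replicate 1 the second was 0.20 and the third −0.01. In OPC replicate 3 Ireb2 was −1.57 on the log2 scale against the other OPC libraries, and its transcript, 5770 nucleotides, is the longest of the list. Genes of like length had a median of −0.32 there. Of the other long transcripts listed, Cybrd1 (5339 nucleotides) was at −0.11 and Tfrc (4890 nucleotides) at −1.19. The part of transcript length in the Ireb2 values was not tested. Per kilobase, Aco1 and Ireb2 stood at 68.1 ± 7.85 and 32.0 ± 16.7 CPM per kb in OPC, 38.9 ± 8.26 and 25.1 ± 3.13 in astrocytes, and 14.8 ± 1.77 and 28.6 ± 5.42 in DRG cultures, so their order was turned in DRG cultures.

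**Figure D3:**
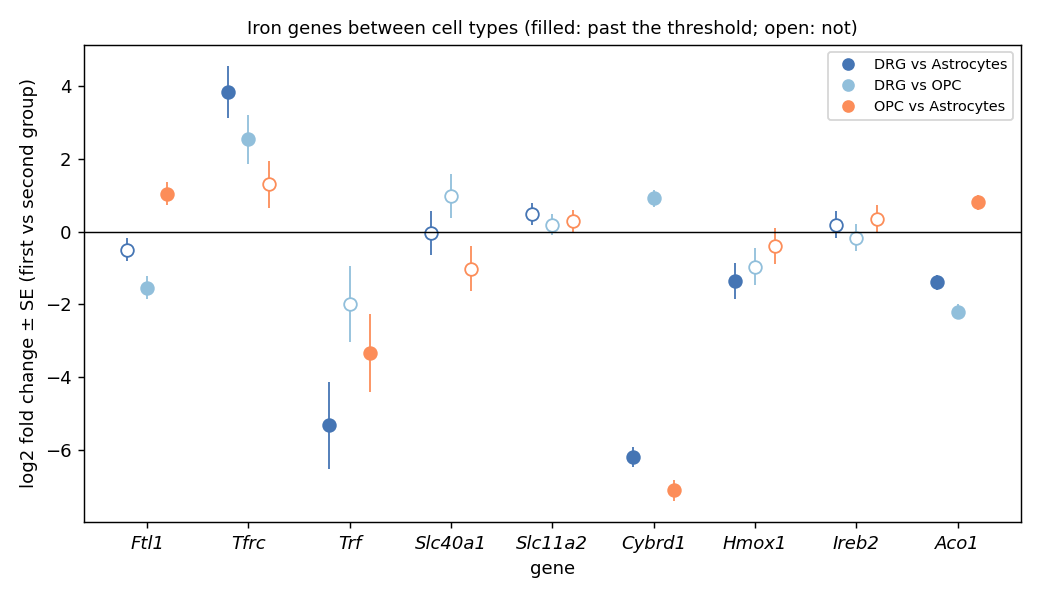
Log2 fold changes of the 9 measured iron genes in 3 comparisons, with bars of 1 SE calculated back from the test statistic. Filled points passed the threshold, as did 51.8 to 60.2% of all genes per comparison, and open points did not. Tfrc and Cybrd1 differed most from 0 in opposite directions in DRG cultures against astrocytes (3.84 and −6.20).

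The genes most like each member were those with the highest Pearson correlation of log2 CPM over the 9 libraries, among 8683 genes of at least 10 CPM (8684 for Slc40a1). With 3 groups in 9 libraries high values are common, so they are a description only. For Trf they were Stab1 (0.983), Tchp (0.973) and C1qa (0.970), Stab1 and C1qa being genes of macrophages. For Cybrd1 they were Col8a2 (0.999), Gpc4 (0.995) and Crb2 (0.994), and 407 genes exceeded 0.9. For Tfrc they were Ube2d2a, Dcbld1 and Usp31 (0.979, 0.977 and 0.973), for Ftl1 Hddc3, Zfp628 and Sf3b2 (0.974, 0.965 and 0.962), and for Aco1 Slc35b2, Gcn1 and Plgrkt (0.994, 0.994 and 0.992), with 959 genes over 0.9. Ireb2 was most like Eif3a, Eml5 and Zfp280d (0.983, 0.975 and 0.971). For Slc40a1, Slc11a2 and Hmox1 at most 2 genes exceeded 0.9, led by Smim8 (0.920), Faf1 (0.939) and Leng1 (0.935).

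Beside the 10 genes, 90 further genes of iron and heme handling were set out in 8 lists by function, and 78 of them were tested. In DRG cultures against astrocytes 21 were higher and 21 lower, 53.8% of those tested, against the background of 60.2%. In DRG cultures against OPC 25 were higher and 14 lower (50.0%, background 59.5%), and in OPC against astrocytes 17 were higher and 24 lower (52.6%, background 51.8%). The median log2 fold changes of the 78 genes were −0.03, 0.26 and −0.03, against −0.13, −0.08 and 0.09 over all genes. Counts of 1 to 3 genes in the lists below moved by up to 2 genes when 1 library was left out. The p-values below are edgeR quasi-likelihood p-values, adjusted by Benjamini-Hochberg over all 14850 genes.

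**Figure D4:**
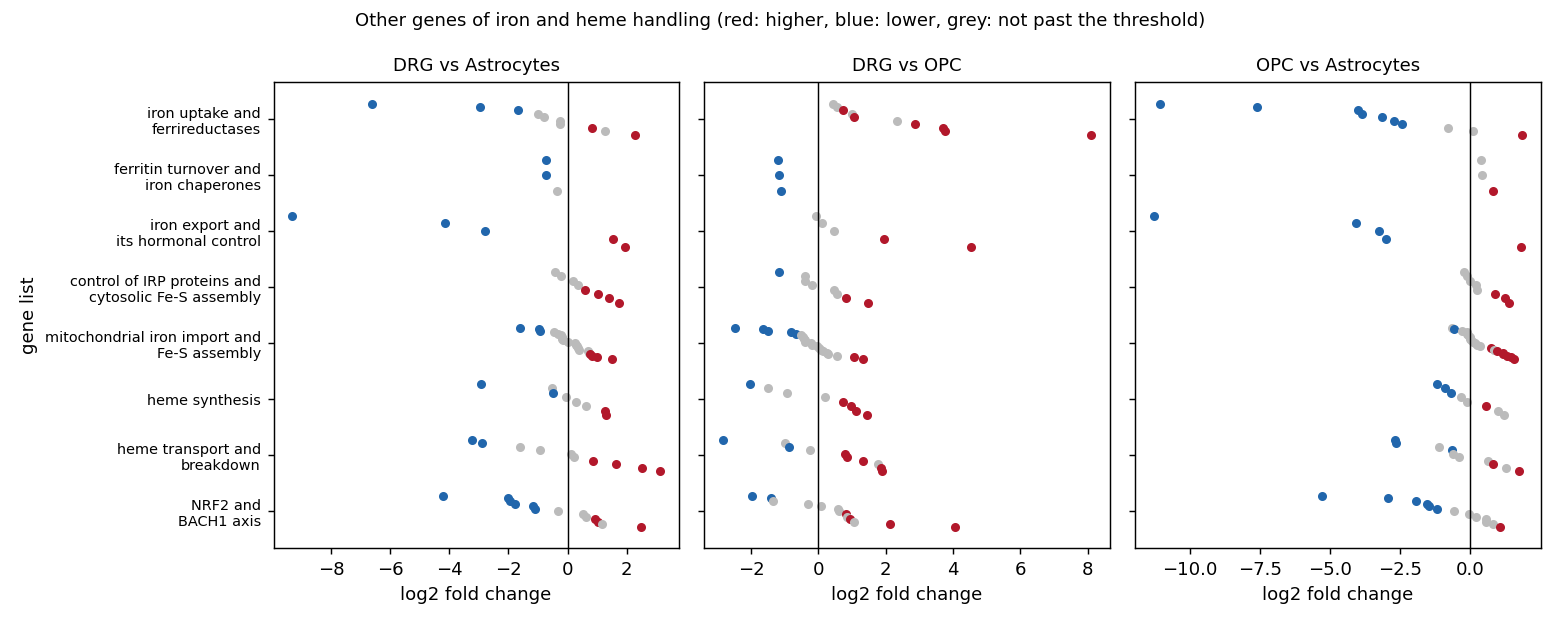
Log2 fold changes of 78 further genes of iron and heme handling in 3 comparisons, 1 point per gene, grouped by list. Red points passed the threshold as higher, blue as lower, and grey did not pass. All 3 tested genes of ferritin turnover were blue in DRG cultures against OPC, and 7 of 10 uptake genes were blue in OPC against astrocytes. These 7 uptake genes averaged at most 6.23 CPM in astrocytes.

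Most tested genes of the iron uptake and ferrireductase list were lower in OPC than in astrocytes, and those genes were at low levels in both. Of 10 tested, 7 were lower and 1 higher in OPC than in astrocytes, and 6 were higher and 0 lower in DRG cultures than in OPC, where 25.5% of all genes were lower in the former comparison and 28.4% higher in the latter. Against astrocytes 2 were higher and 3 lower in DRG cultures (all genes 27.4% and 32.7%). The 7 genes lower in OPC averaged 0.816 to 6.23 CPM in astrocytes. Of the 6 higher in DRG cultures than in OPC, all but Mcoln1 averaged at most 4.04 CPM in DRG cultures. Steap4, Meltf and Scara5 averaged 0, 0.00678 and 0.0539 CPM in OPC and passed the filter on low counts through other groups. A lower level in OPC was thus built into their selection. Steap4, a metalloreductase, reached 6.23 ± 2.18 CPM in astrocytes and 0.815 ± 0.520 in DRG cultures with 0 counts in OPC. Pooled over libraries, its 6.48 and 0.734 CPM were at least 293-fold and 33.1-fold higher than the floor of 3 counts over the OPC libraries. These folds are a description, without p-values, since a low OPC level was part of how the gene was selected. Slc39a14, the zinc and iron importer ZIP14, was at 5.83 ± 1.61 CPM in astrocytes, 1.82 ± 0.307 in DRG cultures and 0.879 ± 0.129 in OPC (OPC against astrocytes, log2 −2.73, SE 0.35, adjusted p = 0.00027, and DRG cultures against astrocytes, log2 −1.68, SE 0.33, adjusted p = 0.002). Its higher level in DRG cultures than in OPC (log2 1.05, adjusted p = 0.022) was lost without DRG replicate 2 (0.0824) or OPC replicate 1 (0.0513) or 2 (0.0787). Slc22a17, the lipocalin 2 receptor, went the other way, with 617 ± 409 CPM in DRG cultures, 454 ± 152 in OPC and 127 ± 57.2 in astrocytes (DRG cultures against astrocytes, log2 2.28, SE 0.52, adjusted p = 0.00424, and log2 1.62 without DRG replicate 1). Its higher level in OPC than in astrocyte cultures (log2 1.84, adjusted p = 0.0142) was lost without Astrocytes replicate 3 (0.0501). Mcoln1, the lysosomal channel that releases iron, was higher in DRG cultures (79.8 ± 12.1 CPM) than in astrocyte cultures (45.0 ± 10.2, adjusted p = 0.00945) and OPC (48.1 ± 7.85, adjusted p = 0.0171, lost without DRG replicate 1, 0.0561, or OPC replicate 2, 0.0694). The endosomal ferrireductase Steap3 was under 1 CPM in every group, on 2 accessions whose shared reads may be missing.

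Of 3 tested genes that load and unload ferritin, 3 were lower in DRG cultures than in OPC (31.1% of all genes were), 2 were lower than in astrocytes (32.7% of all genes), and 1 was higher and 0 lower in OPC than in astrocytes (26.3% and 25.5%). Without Astrocytes replicate 3, 0 of 3 were lower in DRG cultures than in astrocytes, and without Astrocytes replicate 2 or DRG replicate 1 or 2 it was 1. Pcbp1, a chaperone that delivers iron to ferritin, reached 430 ± 89.7 CPM in OPC, 243 ± 44.8 in astrocyte cultures and 189 ± 12.9 in DRG cultures (DRG cultures against OPC, log2 −1.19, SE 0.21, adjusted p = 0.00109), and missed the threshold between DRG cultures and astrocytes (log2 −0.36, adjusted p = 0.159). Its higher level in OPC than in astrocyte cultures (log2 0.82, adjusted p = 0.00934) was lost without OPC replicate 3 (log2 0.52, adjusted p = 0.0722). Ncoa4, the receptor that sends ferritin to lysosomes, was at 13.2 ± 1.35 CPM in OPC, 9.86 ± 0.376 in astrocyte cultures and 5.88 ± 1.08 in DRG cultures (DRG cultures against OPC, log2 −1.16, SE 0.24, adjusted p = 0.00272). Against astrocytes (log2 −0.74, adjusted p = 0.0236) the call was lost without Astrocytes replicate 2 (0.0524) or 3 (0.052) or DRG replicate 1 (0.0615) or 2 (0.0628).

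Several genes of export and its hormonal control were highest in astrocytes. Of 5 genes tested, 3 were lower and 2 higher in DRG cultures than in astrocytes, and 4 lower and 1 higher in OPC than in astrocytes, with 32.7% and 25.5% of all genes lower. Against OPC, 2 were higher and 0 lower in DRG cultures (all genes 28.4% and 31.1%). These 2, Tmprss6 and Bmp6, averaged only 0.402 and 0.638 CPM in DRG cultures and 0.0148 and 0.162 in OPC. Tmprss6 (0.136 CPM in astrocytes) was also among the 4 lower in OPC and the 2 higher in DRG cultures than in astrocytes. It held 2 reads over the OPC libraries and passed the filter on low counts through other groups. A lower level in OPC was thus built into its selection. Bmp6, the ligand that induces hepcidin in liver, reached 536, 281 and 407 CPM in Astrocytes replicates 1 to 3, 0.638 ± 0.261 CPM in DRG cultures and 0.162 ± 0.101 in OPC (log2 −9.33 and −11.27, adjusted p = 2.67e-06 and 4.80e-06). Cp, the ferroxidase ceruloplasmin that assists ferroportin, reached 166, 25.1 and 31.0 CPM in Astrocytes replicates 1 to 3, 4.21 ± 1.83 in DRG cultures and 4.39 ± 1.15 in OPC (log2 −4.14 and −4.07, adjusted p = 0.0015 and 0.0022). Without Astrocytes replicate 1, the library with the most microglia markers, these differences were −2.75 and −2.67 and still passed, and with 1 accession per gene the first was −5.62. Hfe, a partner of the transferrin receptors, was at 28.1 ± 9.34 CPM in astrocytes, 4.10 ± 1.84 in DRG cultures and 2.95 ± 1.57 in OPC (adjusted p = 0.00167 and 0.00112). Neo1, a co-receptor of hepcidin signalling with broad other roles, was lower in astrocytes (1.35 ± 0.130 CPM) than in DRG cultures (5.18 ± 1.42, adjusted p = 0.00202) and OPC (4.78 ± 1.82, adjusted p = 0.00366). Hamp, the hepcidin gene itself, and Heph, a second ferroxidase, did not pass the filter on low counts.

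Among genes that control IRP proteins and build iron-sulfur clusters in the cytosol, 4 of 8 were higher and 0 lower in DRG cultures than in astrocytes, and 3 of 8 were higher and 0 lower in OPC than in astrocytes, with 27.4% and 26.3% of all genes higher. Against OPC, 2 were higher and 1 lower in DRG cultures (all genes 28.4% and 31.1%), and 4 were higher without OPC replicate 3. Fbxl5, the iron sensor that marks IRP2 for removal, was at 15.9 ± 4.74 CPM in astrocytes, 11.9 ± 1.24 in DRG cultures and 15.7 ± 7.47 in OPC and passed in no comparison (adjusted p = 0.336, 0.351 and 0.977). Mms19, a scaffold of cluster delivery, was higher in DRG cultures (232 ± 82.0 CPM) than in astrocyte cultures (69.3 ± 6.46, adjusted p = 0.000517) and OPC (82.6 ± 11.3, adjusted p = 0.0012). Nubp1, a cluster assembly scaffold, was higher in OPC (62.2 ± 15.2 CPM) than in astrocyte cultures (24.2 ± 6.73, adjusted p = 0.00258) and DRG cultures (27.6 ± 0.416, adjusted p = 0.00423).

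Mitochondrial iron and cluster genes were called in both directions. Of 21 tested, 4 were higher and 3 lower in DRG cultures than in astrocytes (all genes 27.4% and 32.7%), 2 higher and 5 lower in DRG cultures than in OPC (28.4% and 31.1%), and 7 higher and 1 lower in OPC than in astrocytes (26.3% and 25.5%). Without OPC replicate 3, 8 were higher in DRG cultures than in astrocytes and 4 than in OPC. The importers Slc25a37 (38.2 ± 7.06, 38.2 ± 8.52 and 37.7 ± 10.4 CPM in astrocytes, DRG cultures and OPC) and Slc25a28 (20.4 ± 4.27, 18.2 ± 1.07 and 23.9 ± 1.60 CPM) passed in no comparison, with log2 fold changes from −0.39 to 0.23. Bola3, which helps pass on clusters, was lower in DRG cultures (9.65 ± 2.03 CPM) than in astrocyte cultures (29.5 ± 2.81, adjusted p = 0.000996) and OPC (27.3 ± 7.996, adjusted p = 0.00146). Iscu, the assembly scaffold, was higher in DRG cultures (120 ± 35.0 CPM) than in OPC (48.1 ± 9.54, adjusted p = 0.00251). Cisd1, which encodes the mitochondrial cluster protein mitoNEET, was higher in DRG cultures (173 ± 56.4 CPM) than in astrocyte cultures (60.7 ± 11.2, adjusted p = 0.00228). Nfs1, the cysteine desulfurase, was called lower in OPC than in astrocytes at an adjusted p of 0.049, and 11 of the 17 alternatives ended that call.

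Heme synthesis genes were called in both directions. Of 8 tested, 2 were higher and 2 lower in DRG cultures than in astrocytes (all genes 27.4% and 32.7%), 4 higher and 1 lower in DRG cultures than in OPC (28.4% and 31.1%), and 1 higher and 3 lower in OPC than in astrocytes (26.3% and 25.5%). Ppox, the enzyme before the last step, was lower in DRG cultures (3.99 ± 0.384 CPM) than in astrocyte cultures (30.6 ± 5.17, log2 −2.94, SE 0.25, adjusted p = 1.57e-05) and OPC (16.2 ± 2.75, log2 −2.03, SE 0.24, adjusted p = 0.000108). Uros and Cpox, which act earlier in the pathway, were higher in DRG cultures (46.9 ± 7.40 and 69.2 ± 5.07 CPM) than in astrocyte cultures (18.9 ± 2.13 and 28.5 ± 3.42) and OPC (17.4 ± 3.35 and 42.1 ± 1.15), with adjusted p from 0.000156 to 0.00395. Fech, which inserts iron into heme, was higher in astrocytes (122 ± 12.2 CPM) than in OPC (75.8 ± 4.10, log2 of OPC against astrocytes −0.69, adjusted p = 0.00342) and in DRG cultures (86.7 ± 1.54, adjusted p = 0.0139, lost without Astrocytes replicate 3, 0.0511, or DRG replicate 3, 0.0538). Urod was lower in OPC (32.9 ± 3.63 CPM) than in astrocyte cultures (74.6 ± 29.1, adjusted p = 0.00652). Alas1, the rate-limiting first enzyme, was higher in DRG cultures (7.95 ± 0.948 CPM) than in OPC (4.09 ± 1.34, adjusted p = 0.0213), a call lost without DRG replicate 2 (0.0754) or OPC replicate 1 (0.0615) or 2 (0.0692).

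In heme transport and breakdown, 4 of 10 genes were higher and 2 lower in DRG cultures than in astrocytes (all genes 27.4% and 32.7%), 5 higher and 2 lower in DRG cultures than in OPC (28.4% and 31.1%), and 2 higher and 3 lower in OPC than in astrocytes (26.3% and 25.5%). The 5 higher than in OPC became 3 without DRG replicate 2 or OPC replicate 1 or 2, and 2 without DRG replicate 3. Hmox2, the constitutive heme oxygenase, was highest in DRG cultures (16.1 ± 0.584 CPM, against 5.21 ± 0.732 in astrocytes, adjusted p = 0.000409, and 9.02 ± 1.42 in OPC, adjusted p = 0.0133), the cell type in which Hmox1 had the lowest mean. Hmox2 was counted on 2 accessions, whose shared reads may be missing. Abcg2, a porphyrin exporter with other substrates, was higher in DRG cultures (182 ± 132 CPM) than in astrocyte cultures (20.7 ± 10.2, log2 3.14, adjusted p = 0.0015, and log2 2.37 without DRG replicate 3). Lrp1, a receptor for heme bound to hemopexin among many ligands, was lower in DRG cultures (146 ± 30.3 CPM) than in astrocyte cultures (1389 ± 142, log2 −3.25, SE 0.27, adjusted p = 1.47e-05) and OPC (1044 ± 304, log2 −2.84, SE 0.27, adjusted p = 2.97e-05). Slc48a1, a lysosomal heme transporter, was lower in OPC (136 ± 24.6 CPM) than in DRG cultures (235 ± 8.11, adjusted p = 0.00722). Blvra, a biliverdin reductase, was higher in OPC (49.1 ± 8.99 CPM) than in astrocyte cultures (14.8 ± 3.02, adjusted p = 0.00101). Flvcr1, a heme exporter, was higher in DRG cultures (68.6 ± 5.51 CPM) than in OPC (27.4 ± 8.36, adjusted p = 0.0261), and the call was lost without DRG replicate 2 (0.0555) or 3 (0.0653) or OPC replicate 2 (0.0543).

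The factors NRF2 and BACH1, which act in opposite directions on Hmox1, ferritin and other genes, were each highest in another glial type. Nfe2l2, which encodes NRF2, reached 431 ± 56.7 CPM in astrocytes, 107 ± 4.68 in DRG cultures and 56.2 ± 14.7 in OPC (OPC against astrocytes, log2 −2.94, SE 0.23, adjusted p = 2.46e-05, and DRG cultures against astrocytes, log2 −2.01, SE 0.22, adjusted p = 6.82e-05). Bach1 reached 102 ± 38.7 CPM in OPC, 48.9 ± 8.31 in astrocyte cultures and 38.8 ± 7.10 in DRG cultures (DRG cultures against OPC, log2 −1.40, SE 0.29, adjusted p = 0.00249), and its OPC against astrocyte call (log2 1.06, adjusted p = 0.0121) was lost without Astrocytes replicate 3 (0.0501). Of 13 genes of this axis, 6 were lower and 1 higher in OPC than in astrocytes, and 6 lower and 3 higher in DRG cultures than in astrocytes, with 25.5% and 32.7% of all genes lower. Against OPC, 4 were higher and 2 lower in DRG cultures (all genes 28.4% and 31.1%). Srxn1, an antioxidant NRF2 target, was highest in DRG cultures (682 ± 200 CPM, against 121 ± 5.35 in astrocyte cultures, log2 2.49, adjusted p = 0.000287, and 41.0 ± 16.6 in OPC, log2 4.05, adjusted p = 2.81e-05). Osgin1 was highest in astrocytes (9.76 ± 5.22 CPM, against 0.522 ± 0.160 in DRG cultures and 0.248 ± 0.164 in OPC, adjusted p = 0.000502 and 0.000316), and its difference between DRG cultures and astrocytes moved from −4.23 to −3.63 on the log2 scale without Astrocytes replicate 1 and OPC replicate 3 together. Keap1, the inhibitor of NRF2, was lower in DRG cultures (1.54 ± 0.244 CPM) than in OPC (5.99 ± 1.68, adjusted p = 0.00076). Nqo1, a quinone reductase, was lower in DRG cultures (5.25 ± 2.88 CPM) than in astrocyte cultures (20.3 ± 14.8, adjusted p = 0.0248), which was lost without Astrocytes replicate 1 (0.0949) or DRG replicate 1 (0.0633). Slc7a11, the cystine importer, passed in no comparison (51.7 ± 28.02, 118 ± 92.6 and 76.7 ± 12.7 CPM in astrocytes, DRG cultures and OPC), and did so against both glial types without DRG replicate 2 (adjusted p = 0.00984 and 0.0494).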

How the data were processed

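The authors deposited a file of unnormalized counts for each library, with RefSeq transcripts as rows. Per the submitters' processing notes, TopHat2, HTSeq and the build mm10 were used; versions, the counting mode and the strand are not given in the sources used here. Libraries were made with a stranded mRNA kit, per the labels' protocols. Of 33787 accessions, 32417 took a symbol from RefSeq (GRCm38.p6), 187 from GENCODE vM21, and 1183 kept their own identifier. Counts were summed per gene. HTSeq total rows, 37.1 to 46.9% of reads, were left out. Because counting was per transcript, genes with several accessions can be under-counted.

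Tests were edgeR 4.0.16 quasi-likelihood F-tests in R 4.3.3 on all 9 libraries, 1 coefficient per cell type, after filterByExpr (minimum count 10) and TMM scaling, with Benjamini-Hochberg adjustment over 14850 genes and a threshold of 0.05. Each SE is the size of the log2 fold change over the square root of F. The script was tested on simulated data. DESeq2 1.42.0 was an alternative. Members and lists were chosen with earlier results of these data known. Of the further genes, the text names 20 fixed key genes, and per list, comparison and direction the called gene with the largest change, at least 5 CPM in the higher group and groups that do not overlap. 1 gene that this rule names is not reported here. Microglia, fibroblast and mural, astrocyte, neuronal, OPC and myelin lists are given above; endothelial genes summed to at most 53.2 CPM in any library, sensory neuron genes to 4680 ± 425 CPM in DRG neurons and at most 17.4 CPM elsewhere, and Schwann and satellite glia genes to 602 ± 217 CPM in astrocytes, 1867 ± 585 in OPC cultures and 35.6 ± 22.1 in DRG.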

Additional observations from a re-analysis of the deposited data

How the results depend on the processing

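Each result was recomputed under 17 alternatives. Counts of iron genes called were 5, 4 and 4 of 9 in DRG against astrocytes, DRG against OPC and OPC against astrocytes. Of all genes, 60.2, 59.5 and 51.8% were called. The counts of iron genes ran from 4 to 5, 4 to 6 and 3 to 5 when 1 library was left out. Since the list was drawn up on these contrasts, they show only how far calls depend on the processing. Fth1, on 0 to 17 reads, passed the filter under some alternatives and is not counted. Without Astrocytes replicate 1 and OPC replicate 3 together, 2 iron genes and 11 further genes were called in OPC against astrocytes as differing and as higher, in place of 4 and 17. Of all genes, 2876 were then called higher and 3647 lower, in place of 3904 and 3786. The labels do not say whether replicate numbers pair the libraries. Deviations from the group means correlated at −0.04 to 0.13 between libraries with the same number, and 6 of 9 libraries correlated best with their own number. With a term for replicate number (the replicate block), 5, 5 and 4 iron genes were called. Of all genes, 4033, 4179 and 3830 were then called higher and 4714, 4516 and 3591 lower. Trf then passed in DRG cultures against OPC (log2 −2.85) and no longer in OPC against astrocytes (−2.30). Tfrc then passed in OPC against astrocytes (1.61). Library size alone moved the median log2 fold change of all genes by −0.26, −0.15 and −0.11 in the 3 comparisons, and DESeq2 size factors moved it by 0.07, 0.17 and −0.10. Among recomputed fold changes of the 9 iron genes, 447 moved by less than 1 SD of the replicates and 12 by more. Of the recomputed calls of the named further genes, 1917 kept their side of the threshold, 82 lost it, 40 gained it and 0 reversed. Depth limits Fth1, Cybrd1 in DRG and OPC (46 to 118 reads per library), Trf in DRG (41 to 251) and Slc40a1 (49 to 428).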
